A study of Homo sapiens with 10 samples.

Results

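The Eph receptors EPHA2, EPHA4, EPHB2, EPHB3 and EPHB4 and the ephrins EFNA1, EFNA5, EFNB1 and EFNB2 were followed by gene name through both deposited count tables. These 9 genes, of 58735 in the tables, were chosen by name and selected on their measured levels and their OE against EV changes in each set, so their differences between overexpression (OE) and control (EV), and between the sets of libraries, are given as a description with no test. All 9 were found in both tables under 1 identifier each. The wider family holds 14 receptors and 8 ephrins, and the 13 genes that were not chosen are given beside the 9.

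Eph receptors are the largest family of receptor tyrosine kinases, and ephrins are their ligands on neighbouring cells. Ephrin-A proteins are tied to the membrane by a lipid anchor and ephrin-B proteins cross it, so that contact signals forward into the receptor cell and in reverse into the ephrin cell. The pair acts on cell repulsion, adhesion and the actin cytoskeleton, and several receptors are altered in level in carcinomas.

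The RNA came from TPC-1 cells, a human line derived from a papillary thyroid carcinoma. Control cells carried an empty vector (EV, n = 5), and the other cells overexpressed the long non-coding RNA PTCSC3-AS1 (OE, n = 5). Replicates 1 to 3 of each group were deposited in 1 table, called the first set here, and replicates 4 and 5 in another, called the second set. All groups share the line. The submitters describe the libraries as 5 pairs, without stating how a pair was formed, and the main fits leave them unpaired. Column names differ between the sets. Overexpressing libraries carry the prefix EST for replicates 1 to 3, which is absent for replicates 4 and 5. Control names spell out the empty vector for replicates 1 to 3 and abbreviate it for the others. Whether the names mark different constructs is not stated, and all 5 overexpressing libraries are taken as OE. The sources used here do not state what separates the sets, how the vector was delivered or whether replicates were separate cultures. The p-values therefore measure library-to-library spread alone, and part of it may be technical.

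Libraries held 15761474 to 18066559 counts, and 3 counts, the floor used for a count of 0, equalled 0.166 to 0.190 CPM (counts scaled to a common library size). The first principal component (51.6% of the variance) parted the sets. On the second component (13.9%) EV replicate 2 was far from the rest, at -15.5 against -5.22 to 7.04 for the other libraries. Its log2 levels, taken from the mean of its set, also ran lower with gene length (r = -0.44 across 12092 genes, which are not independent replicates), against r = -0.21 to 0.39 in the others. First-set changes of the 8 genes fitted are given with and without that library. Of thyroid markers, the transcription factor PAX8 averaged 414 CPM, whereas the thyrotropin receptor TSHR, the iodide transporter SLC5A5 and the transcription factor NKX2-1 had no count in any library. Of endothelial markers, where EPHB4 and EFNB2 are also found, the receptor KDR had no count in any library, and 1 of the 10 genes on the list was at 0 in all. The summed level of that list was 89.8 to 144 CPM in EV and 114 to 155 CPM in OE, most of it EGFL7, and its part in the results on EPHB4 was not tested.

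EPHA2 had the highest level of the family and EPHB3 the lowest of the 9. The sequences just before the transcription start of these genes, and of EPHB4 and EPHA4, which had the largest differences among the 8 genes fitted (EPHB4 over both sets between groups, EPHA4 between the sets), show what stands upstream of them. Each is the 150 bases before the RefSeq start on GRCh38.p14, 5′ to 3′ on the gene's strand. Capitals mark a GC box (GGGCGG or its reverse CCGCCC) or, in EPHA2, a cAMP response element (TGACGTCA). The sequences are EPHA2 at chr1:16156070-16156219 (minus strand), EPHA4 at chr2:221574203-221574352 (minus strand), EPHB3 at chr3:184561635-184561784 (plus strand) and EPHB4 at chr7:100827524-100827673 (minus strand).
EPHA2: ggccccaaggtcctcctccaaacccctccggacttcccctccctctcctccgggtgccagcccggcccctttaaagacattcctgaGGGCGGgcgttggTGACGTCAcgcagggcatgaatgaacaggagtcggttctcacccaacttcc
EPHA4: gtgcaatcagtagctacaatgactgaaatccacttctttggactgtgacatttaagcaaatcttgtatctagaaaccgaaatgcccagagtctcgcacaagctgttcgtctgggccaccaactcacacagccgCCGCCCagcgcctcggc
EPHB3: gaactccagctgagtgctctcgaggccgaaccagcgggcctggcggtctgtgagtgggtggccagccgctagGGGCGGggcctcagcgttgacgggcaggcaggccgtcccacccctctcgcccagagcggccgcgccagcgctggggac
EPHB4: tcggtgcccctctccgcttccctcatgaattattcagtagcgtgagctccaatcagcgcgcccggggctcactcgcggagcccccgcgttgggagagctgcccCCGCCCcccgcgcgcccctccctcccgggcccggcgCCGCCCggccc
All 9 genes matched the RefSeq table and all 9 windows held a GC box, which 36.8% of 35116 promoter windows of that length held on either strand. The cAMP response element was looked for after the EPHA2 sequence had been seen, and 1.40% of windows held it. A TATA box (TATAAA or TTTATA, in 6.71% of windows) was found in EFNB2 alone of the 9, and an AP-1 site (TGANTCA on either strand, in 4.17%) in none. These letters describe the windows and say nothing of binding.

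Levels were compared between genes as CPM per kilobase of exons. EPHA2, a receptor for ephrin-A1 that is abundant in many carcinomas, averaged 98.2 CPM per kilobase over the 10 libraries and lay above 97.3% of the genes tested. It made up 85.0% to 87.7% (median 86.9%) of the summed level per length of all 14 receptors. EFNB2, the ephrin-B2 ligand preferred by EPHB4, followed at 12.1, then EFNA1 at 8.17, EPHB4 at 6.61, EFNA5 at 4.02, EFNB1 at 3.84, EPHB2 at 2.10, EPHA4 at 1.57 and EPHB3 at 0.0985 CPM per kilobase. The ranges over libraries of EFNA1 and EPHB4, of EFNA5 and EFNB1 and of EPHB2 and EPHA4 overlapped in both groups, so those neighbours in the order were not separated by their spread. The other neighbouring pairs did not overlap in either group. The length used is that of all annotated exons of a gene, and the order depends on it. In CPM without length, EPHB2 averaged 26.3 and EFNB1 12.7, the reverse of their order here.

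**Figure D1:**
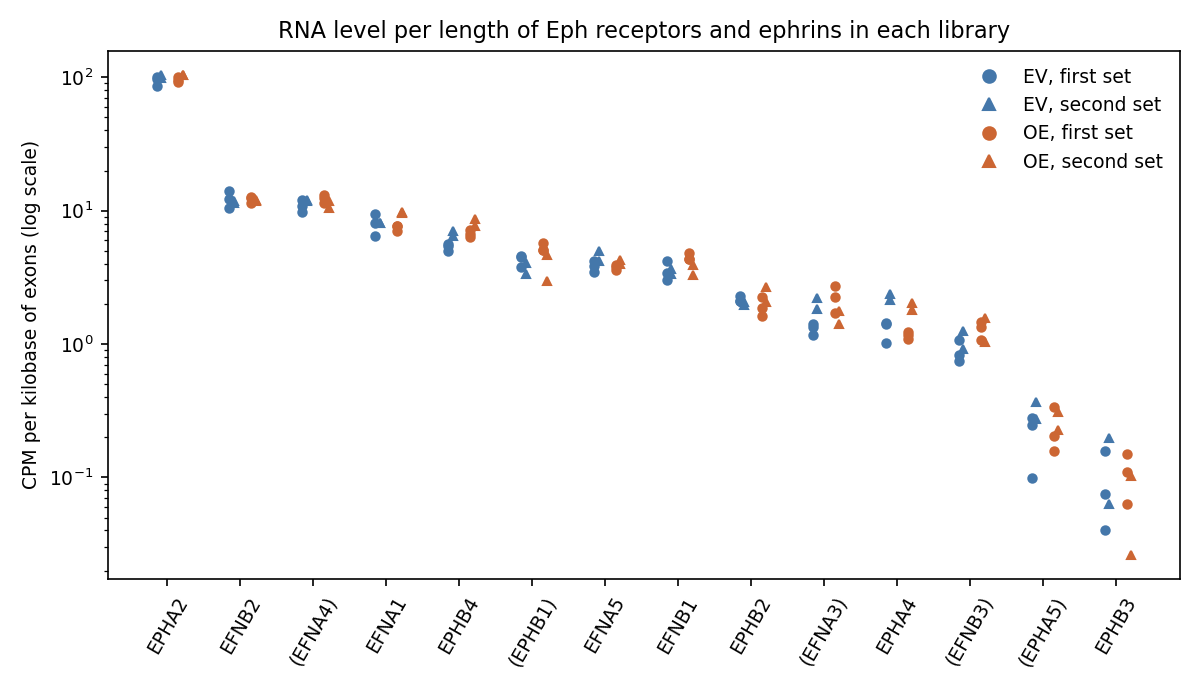
Level of the 9 genes and of 5 other family genes (in brackets) per library, as CPM per kilobase of exons on a log scale, with EV and OE libraries of each set marked. EPHA2 lies far above the other receptors, and EPHB3 far below the rest of the 9 genes.

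Among the ephrins the signal was divided more evenly. EFNB2 held a median 27.8% of the summed ephrin level per length, and EFNA4, an ephrin-A ligand outside the 9, held 27.0%. EFNA1 followed with 18.8%, EFNA5 with 9.33% and EFNB1 with 8.71%. Of receptors outside the 9, EPHB1 averaged 4.39 CPM per kilobase, above EPHB2 and EPHA4. EFNA2, EPHA7 and EPHA10 had no count in any of the 10 libraries.

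The receptors are taken first. EPHA2 (ENSG00000142627, hg38 chr1:16124337-16156087, minus strand) had 417, 357, 402, 408 and 433 CPM in EV replicates 1 to 5. Its OE values were 417, 381, 401, 435 and 433 CPM. The groups overlapped in the first set, and in the second OE lay above EV by a gap smaller than the spread of the EV libraries. The log2 change, OE over EV, was 0.04 (SE 0.06, 95% interval -0.10 to 0.17) over both sets.

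EPHA4 (ENSG00000116106, hg38 chr2:221418027-221574202, minus strand) is a receptor that binds ephrins of both classes. It had 10.7, 7.75 and 10.8 CPM in the EV libraries of the first set and 17.98 and 16.22 CPM in those of the second. The OE libraries had 8.21, 9.27 and 8.90 CPM in the first set and 15.3 and 13.5 CPM in the second. Every library of the second set was above every library of the first. OE was below EV in the second set without overlap, at a log2 change of -0.25 (SE 0.15), and overlapped it in the first, at -0.16 (SE 0.17), or -0.30 without EV replicate 2.

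EPHB2 (ENSG00000133216, hg38 chr1:22710839-22921500, plus strand) and EPHB3 (ENSG00000182580, hg38 chr3:184561784-184582409, plus strand) are receptors known from cell positioning in the intestinal crypt. EPHB2 had 28.8, 26.5, 26.3, 26.1 and 24.5 CPM in EV and 23.4, 20.3, 28.0, 33.4 and 25.7 CPM in OE. In the first set the log2 change was -0.20 (SE 0.13). For the second set it was 0.23 (SE 0.16), with overlapping libraries in both sets. Without EV replicate 2 the first was -0.22, and without OE replicate 4 the second was 0.02. EPHB3 had 6, 11, 3, 5 and 14 counts in EV and 12, 9, 5, 2 and 8 counts in OE, so that no difference was detectable at this depth.

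EPHB4 (ENSG00000196411, hg38 chr7:100802565-100827521, minus strand), the receptor of ephrin-B2 known from venous endothelium, had the largest change over both sets of the 8 genes that could be fitted, EPHB3 having too few counts. Its EV libraries had 36.0, 32.3 and 35.003 CPM in the first set and 45.0 and 41.8 CPM in the second. The OE libraries had 45.8, 42.9 and 41.1 CPM in the first set and 55.6 and 49.6 CPM in the second. Within each set every OE library was above every EV library. The log2 change was 0.31 over both sets (SE 0.07, 95% interval 0.15 to 0.46), 0.32 (SE 0.10) within the first and 0.28 (SE 0.11) within the second. It was 0.28 in the first set without EV replicate 2 and 0.19 in the second without OE replicate 4.

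**Figure D2:**
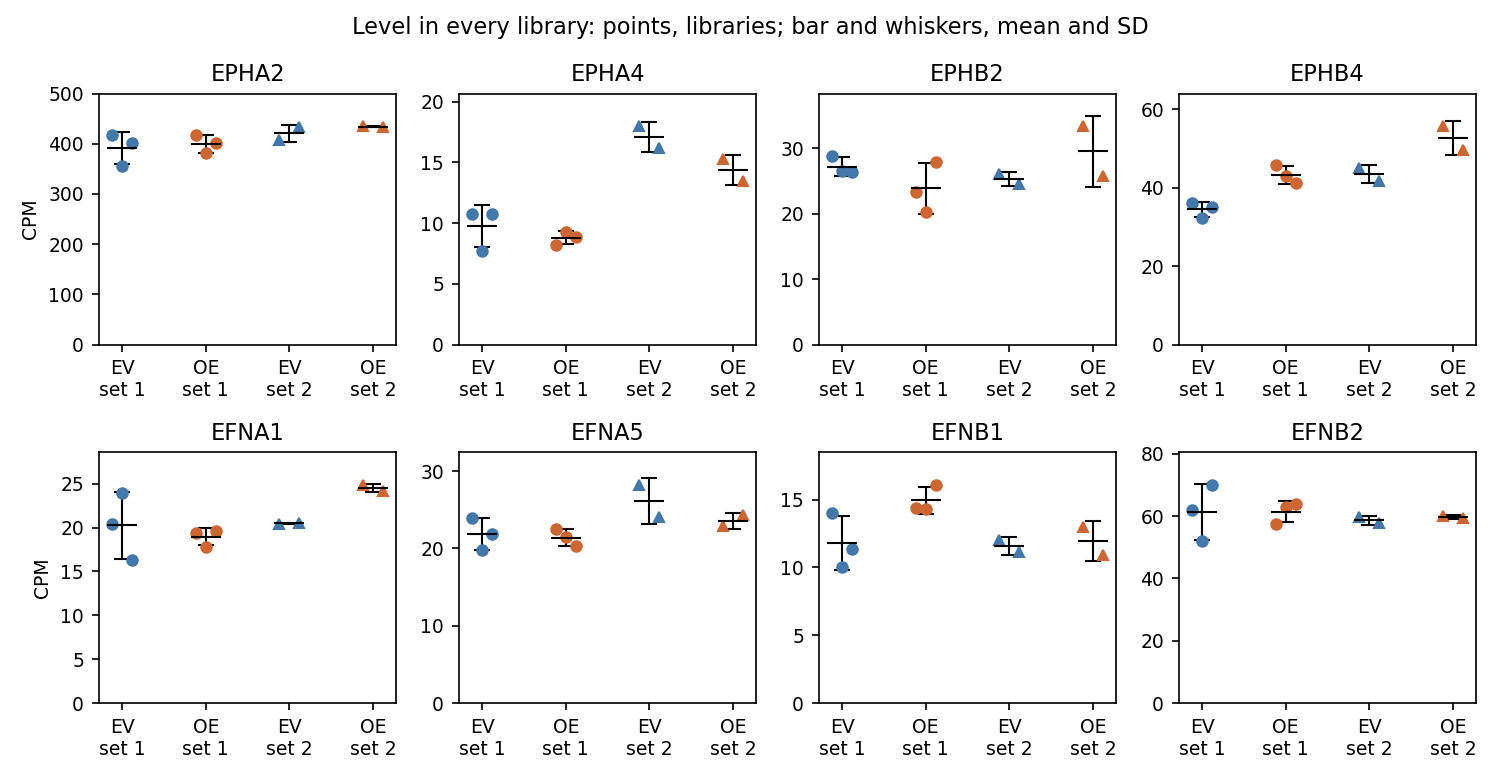
CPM of the Eph receptors and ephrins in each library, by group and set, with points for libraries and bars for the mean and SD. EPHB4 is higher in OE within each set, from 32.3 to 36.0 CPM in EV to 41.1 to 45.8 CPM in OE in the first, and EPHA4 is higher in every library of the second set.

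Of the ligands, EFNA1 (ENSG00000169242, hg38 chr1:155127460-155134857, plus strand), the main ligand of EPHA2, had 20.4, 23.9, 16.4, 20.4 and 20.5 CPM in EV. Its OE values were 19.4, 17.8, 19.6, 24.9 and 24.2 CPM. The groups overlapped in the first set, at a log2 change of -0.10 (SE 0.15), which was 0.04 without EV replicate 2. In the second set OE lay above EV, at 0.26 (SE 0.12). EFNA1 has the shortest exons of the 9, and it was 0.30 above its set mean (log2) in EV replicate 2; the part of length in that value was not tested.

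EFNA5 (ENSG00000184349, hg38 chr5:107376889-107670895, minus strand), an ephrin-A ligand that also binds EPHB2, had 24.0, 19.8, 21.9, 28.2 and 24.1 CPM in EV. Its OE values were 22.5, 21.4, 20.3, 22.9 and 24.3 CPM. The groups overlapped in both sets, with a log2 change of -0.08 (SE 0.09) over both.

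EFNB1 (ENSG00000090776, hg38 chrX:68828997-68842147, plus strand), the ephrin-B ligand affected in craniofrontonasal syndrome, had 14.01, 10.07, 11.32, 12.03 and 11.11 CPM in EV. Its OE values were 14.4, 14.3, 16.1, 13.0 and 10.9 CPM. OE lay above EV in the first set, at a log2 change of 0.33 (SE 0.15), or 0.23 without EV replicate 2, and overlapped it in the second, at 0.05 (SE 0.17).

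EFNB2 (ENSG00000125266, hg38 chr13:106489731-106535662, minus strand) had 61.9, 52.2, 70.1, 59.6 and 57.7 CPM in EV and 57.5, 62.8, 64.0, 60.2 and 59.3 CPM in OE. The log2 change was 0.01 (SE 0.08, 95% interval -0.16 to 0.18) over both sets. Of its exon bases, 26.2% are shared with AL138689.2 on the opposite strand, a gene with 2 to 16 counts per library. The sources used here do not state whether counting used strand.

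Over both sets, 8 of the 9 genes passed the filter on low counts, and EPHB3 did not. Of the 8, 5 had a log2 change above 0 and 3 below, with a median of 0.02 against 0.00 over all genes tested. None was called by the quasi-likelihood test of edgeR at a Benjamini-Hochberg adjusted p under 0.05, where 0% of 14217 genes were called over both sets, 0.0349% of 14340 in the first set and 0% of 14419 in the second. With the replicate number as a block, 0, 1 and 71 genes were called. At an unadjusted p under 0.05 the counts were 812, 1268 and 158 genes, and DESeq2 called 6, 76 and 1. In the first set, leaving out EV replicate 2 took the log2 change of EPHA2 from 0.02 to -0.04, that of EFNA5 from -0.04 to -0.11 and that of EFNB2 from -0.01 to -0.11. Libraries of OE were all above those of EV for 2 genes in the first set (EPHB4 and EFNB1), where 9.15% of all genes tested were higher, 7.86% lower and 17.0% either and for 3 in the second (EPHA2, EPHB4 and EFNA1), where 12.3% were higher. They were all below for 1, EPHA4, in the second set, where 12.7% were lower and 25.0% either. EPHB4 alone lay above without overlap in both sets, as did 1.22% of all genes tested, with 1.01% lower and 2.23% either. For the interaction of OE with set the low-count filter took group and set together, and EPHB3 also passed it, at 2 to 14 counts. Of 15404 genes fitted there, 1 was called, as higher (0.00649%), and 558 had an unadjusted p under 0.05. Nothing is read from these counts, since the rule used this contrast. In bulk RNA, fewer cells of a type and less RNA per cell cannot be told apart.

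**Figure D3:**
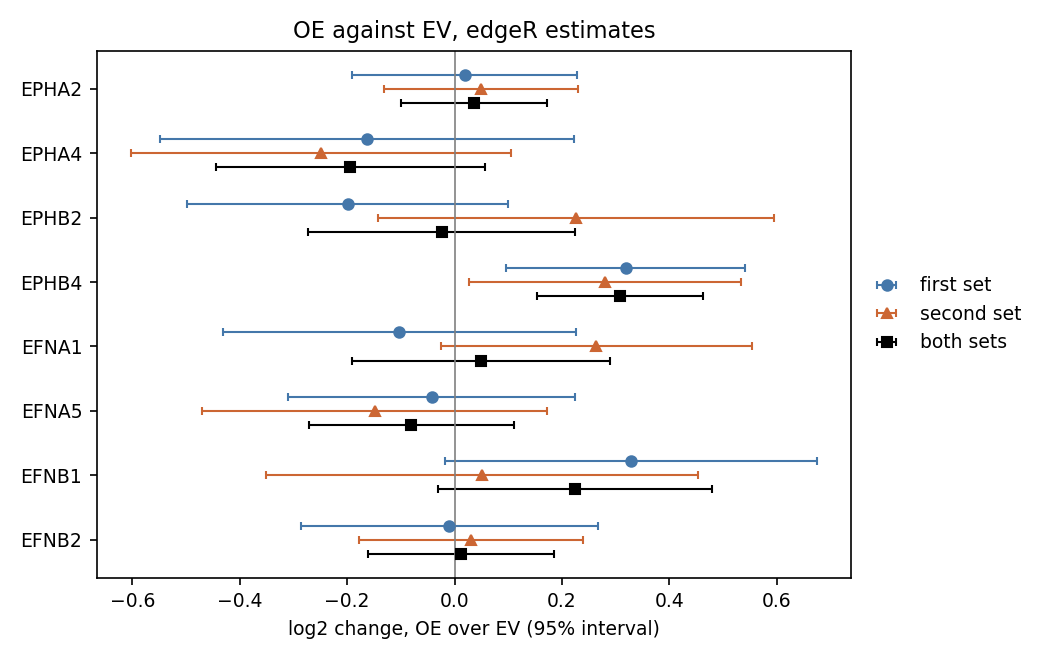
Log2 change of OE over EV for each gene with its 95% interval, over both sets and in each set (EPHB3 did not pass the filter). The estimates of EPHB4 are 0.31, 0.32 and 0.28, and those of EPHB2 and EFNA1 have opposite signs in the sets. No test is read from the intervals.

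In the authors' deposited table, which compares single libraries, the log2 fold change of EPHB4 was 0.31 for replicate 4 and 0.26 for replicate 5, and that of EPHA4 was -0.23 and -0.26. That of EPHB3 was the largest of the 9 in the authors' deposited table, at -1.21 and -0.92, on 5 against 2 counts and 14 against 8 counts. The adjusted p in the authors' deposited table was 1 for all 9 genes in both comparisons.

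Between the sets, levels in each of which were known when the genes were chosen, the differences are likewise a description. EPHA4 was at 9.76 ± 1.74 CPM (SD, n = 3) in EV of the first set and 17.1 ± 1.25 CPM (SD, n = 2) in EV of the second, and in OE at 8.79 ± 0.54 and 14.4 ± 1.24 CPM. The estimated log2 difference, second set over first, was 0.76 (SE 0.12, 95% interval 0.51 to 1.01), and 0.69 to 0.80 with any 1 library left out. For EPHB4 it was 0.31 (SE 0.07, 95% interval 0.15 to 0.46), and the other 6 genes fitted had differences from -0.18 (EFNB1) to 0.20 (EFNA1 and EFNA5). Libraries of the sets did not overlap for 1 of the 9, EPHA4, which was higher, against 8.68% of 14217 genes higher, 7.88% lower and 16.6% either, and nothing is read from this count. Set, culture, sequencing run and vector cannot be told apart as the source of these differences.

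**Figure D4:**
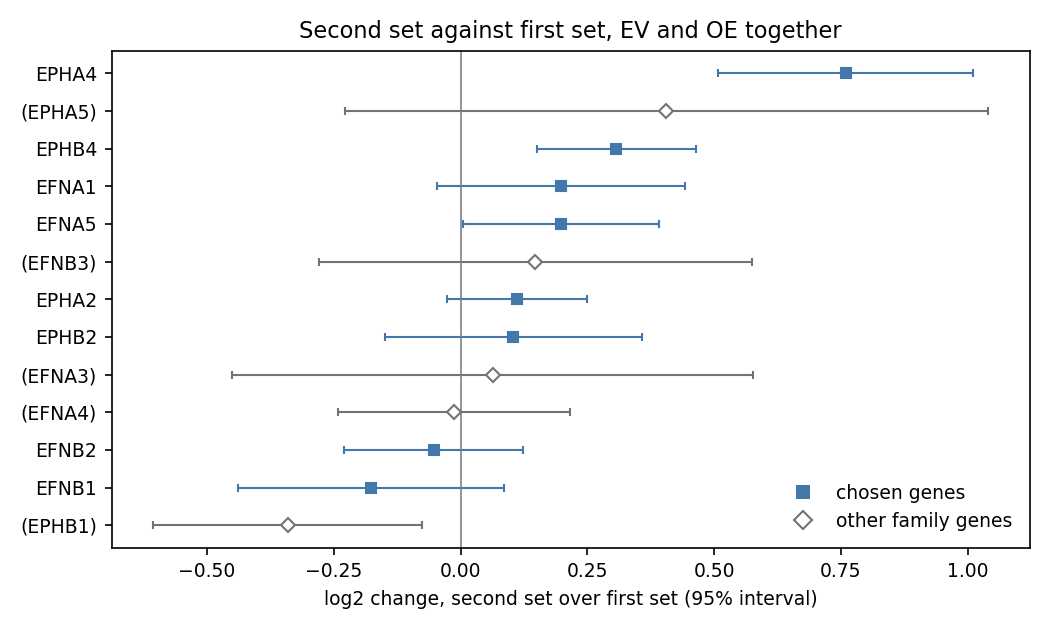
Log2 difference of the second set over the first for each gene, with its 95% interval. EPHA4 stands at 0.76 and EPHB4 at 0.31, and the other 6 of the 9 genes that were fitted lie from -0.18 to 0.20; brackets mark family genes outside the 9.

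Of the 13 other family genes, 5 passed the filter and none was called in OE against EV. In the first set all 5 had a log2 change above 0 (median 0.30, all genes -0.01), and without EV replicate 2 there 4 were above and 1 below (median 0.26). In the second set 2 were above and 3 below (median -0.09, all genes 0.00). EPHB1 had 31.7, 26.4 and 31.4 CPM in EV and 40.1, 35.5 and 35.3 CPM in OE of the first set, a log2 change of 0.30 (SE 0.11, edgeR adjusted p = 0.512), or 0.22 without EV replicate 2. EFNA3 had log2 changes of opposite sign in the sets, at 0.75 in the first (SE 0.25, edgeR adjusted p = 0.457; 0.78 without EV replicate 2) and -0.34 in the second (SE 0.30), neither past the test. EFNB3 had 0.43 over both sets (SE 0.20). EFNA4 had 0.18 in the first set (SE 0.13), 0.26 there without EV replicate 2, and -0.09 in the second (SE 0.15). EPHA5, at 15 to 63 counts per library, had 0.13 in the first set (SE 0.43). It had -0.19 there without EV replicate 2, and -0.26 in the second set (SE 0.34). EFNA3 shares 44.7% and EFNA4 14.96% of exon bases with the readthrough gene AL691442.1, listed at 0 in all libraries, so their counts are uncertain. EPHA1, below the filter, had 10, 8, 6, 2 and 6 counts in EV and 2, 2, 1, 0 and 1 in OE. Its OE libraries lay below EV without overlap in each set, as for 1.01% of genes tested, but under the floor of 3 counts. EPHA6 had 0 to 3 counts in the first set and 8 to 10 in the second. EPHA3, EPHA8 and EPHB6 had at most 2 counts in any library.

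The pathway was described by 82 genes in 5 lists, the other family genes among them, of which 68 passed the filter. None was called in OE against EV over both sets, in the first set or in the second. Of the 68, 4, 11 and 1 had an unadjusted p under 0.05, against 5.71%, 8.84% and 1.10% of all genes tested. Of 28 tested forward signalling genes, 21 were above 0 over both sets (median 0.04, all genes 0.00). In the first set alone 21 were above 0 (median 0.06), and in the second 17 (median 0.02). SRC, the kinase that relays many receptor signals, had a log2 change of 0.24 over both sets (SE 0.09, edgeR adjusted p = 0.847). SHB, an SH2 domain adaptor, had 0.24 (SE 0.10). By set, SRC had 0.36 in the first and 0.05 in the second, and SHB 0.39 and 0.01. Of 9 tested ephrin-B reverse signalling partners, 5 were above 0 over both sets (median 0.06), 4 in the first (median -0.04) and 5 in the second (median 0.05). DVL2 had 0.15 over both sets (SE 0.09), 0.17 in the first and 0.10 in the second. PARD6A, a polarity protein of low level, had 0.73 (SE 0.40), 0.82 and 0.58. Of 14 tested genes of shedding and turnover, 10 were above 0 over both sets (median 0.05), 11 in the first (median 0.08) and 5 in the second (median -0.01). MMP14, a membrane protease, had 0.14 over both sets (SE 0.06), 0.19 in the first and 0.07 in the second. PSEN2, a gamma-secretase subunit, had 0.17 (SE 0.09), 0.14 and 0.20.

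Without EV replicate 2, 14 of the 68 pathway genes were called in the first set, 8 higher and 6 lower, against 10.7% of 14769 genes (6.07% higher and 4.62% lower). ABL2, a kinase that acts on actin, fell by 0.48 on the log2 scale (SE 0.08, edgeR adjusted p = 0.000254). SRC rose by 0.27 (edgeR adjusted p = 0.0116), the adaptor SHB by 0.42 and the gamma-secretase subunit PSENEN by 0.74. In these libraries the deviation from the set mean ran with gene length at r = 0.32 and 0.39 in EV replicates 1 and 3 and at -0.21, 0.00 and 0.17 in OE replicates 1 to 3, and its part in these calls was not tested.

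**Figure D5:**
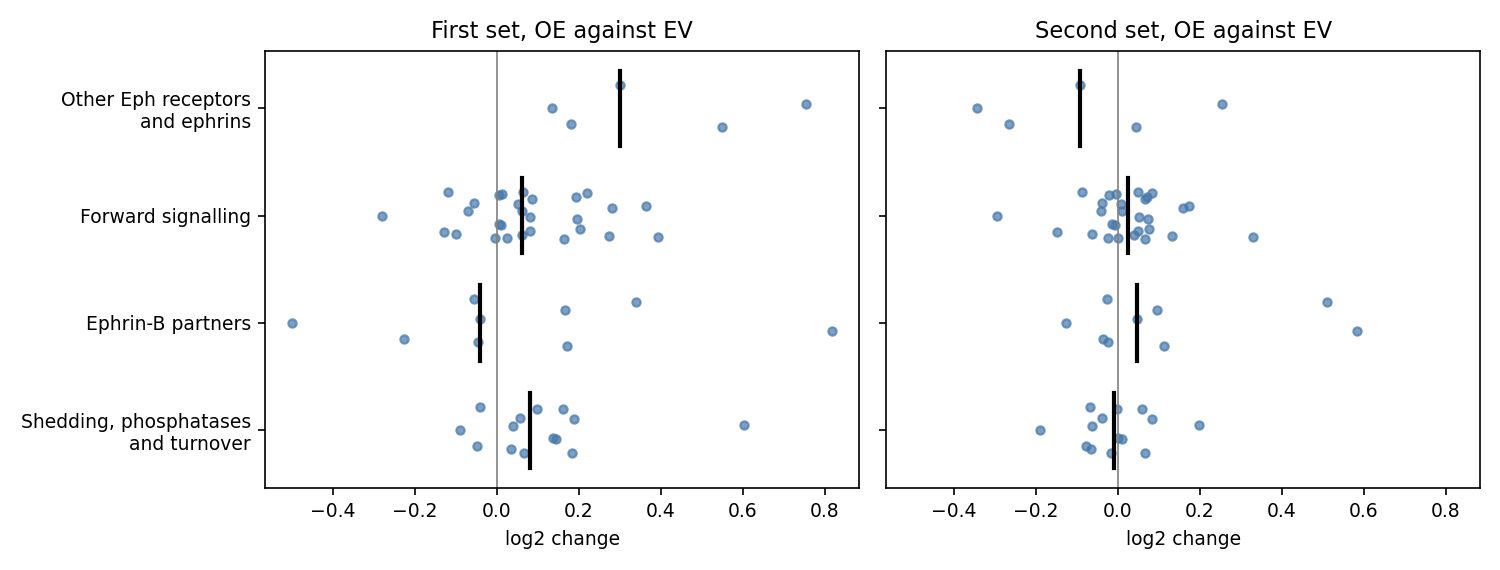
Log2 changes of OE over EV for the tested genes of 4 pathway lists, in each set, with points for genes and black bars for list medians. The medians of 3 lists lie near 0, and those of the other family genes differ most between the sets, at 0.30 in the first and -0.09 in the second.

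Between the sets 9 of the 68 pathway genes (13.2%, against 18.4% of all genes tested) were called by edgeR, 4 higher and 5 lower in the second set, against 9.27% higher and 9.17% lower of all genes. The exchange factor ARHGEF16 was higher by 1.04 (SE 0.20), ARHGEF19 by 0.62 and KALRN by 0.39. NGEF, an exchange factor that binds EPHA4, fell by 0.55 (SE 0.12), MMP14 by 0.42, RGS3 by 0.33 and SDCBP by 0.26.

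How the genes varied with each other turned on EV replicate 2. Of 28 pairs among the 8 genes tested, 19 had a Pearson r above 0 over the 10 libraries after centring within each set, as a description, since all share library depth and groups, and 13 of the 28 were above 0 without EV replicate 2. EPHB4 and EFNB1 had the highest, at 0.74, and also without that library, at 0.62. EFNA1 and EFNB2 had the lowest, at -0.70, but -0.40 without it, where EPHA4 and EPHB4 were lowest, at -0.76 against -0.29 with all libraries. Among 9864 genes outside the family, the one most like EPHB4 was DEDD2 (r = 0.97), that most like EPHA4 was EPM2AIP1 (0.96) and that most like EFNB2 was TAF1 (0.98). For the others these were ARHGAP26 for EPHA2 (0.94), VPS11 for EPHB2 (0.88), ARMC7 for EPHB3 (0.94), IFT43 for EFNA1 (0.93), SP3 for EFNA5 (0.87) and MARK4 for EFNB1 (0.96). Each r is the highest of 9864 on 10 libraries, so a high value must be found, and EPHB3 reached 0.94 on 2 to 14 counts. The values include any difference between groups and were not recomputed without EV replicate 2. No link between the genes is read from them.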

How the data were processed

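RNA of 5 EV and 5 OE libraries of TPC-1 cells was analysed from the 2 tables deposited by the authors. Per the file headers, each value is a raw read count of 1 gene, and all were whole numbers. For replicates 4 and 5 the authors also deposited log2 fold changes. An adjusted p-value deposited by the authors stands beside each. Gene lengths in bases are as deposited. CASAVA 1.8, fastp, HISAT2 2.0.5, featureCounts 1.5.0-p3, DESeq2 1.20.0 and hg38 are named per the submitters' processing notes; the sources used here do not state their settings. The 14 per-library columns of other units were not used.

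Counts were joined by gene identifier, and groups and numbers come from the sample titles. The test of OE against EV was edgeR's quasi-likelihood test (edgeR 4.0.16, R 4.3.3) after TMM scaling and filterByExpr, with set as a covariate. A call is a Benjamini-Hochberg adjusted p under 0.05 over all genes tested. Each set was also fitted alone, and the interaction and the set difference were fitted over all genes, with no test of either read for the 9. Changes are log2 with the SE implied by the test and 95% intervals, and CPM is scaled by TMM. Log2 CPM for correlations used a prior count of 2. The scripts were tested on simulated data. Alternatives were DESeq2 1.42.0, relative log expression scaling, no filter, a replicate block and leaving out each library.

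The members and lists were chosen with earlier results of these data known. Named genes are the 9, every other family gene past the filter, the 2 of lowest p in each of the other 4 lists, and for each of the 9 the gene of highest r with mean log2 CPM of at least 3. The genes of 1 list enter the counts over all lists and are not reported here. Genes named for the set difference and for the fit without EV replicate 2 were chosen after their values were seen. Promoter sequences are from RefSeq on GRCh38.p14. Depth was 15761474 to 18066559 counts per library, and the floor of 3 counts covers counting error only. No library was a copy of another in its group: between their counts chi-square was 4.30 to 53.1 per degree of freedom.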

Additional observations from a re-analysis of the deposited data

Results flagged for a closer look

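EFNA3, an ephrin-A gene outside the 9, had a log2 change of OE over EV of 0.75 in the first set and -0.34 in the second, and every OE library lay above every EV library in the first and below in the second. The interaction of OE with set was -1.10 (SE 0.38, edgeR adjusted p = 0.9996), so the difference did not pass the test. EFNA3 had 37 to 92 counts per library. No library of the 8 genes tested stood apart from its group of 5 in any of 16 groups by Dixon's criterion of 0.71. Each group of 5 held both sets, so a difference between the sets can hide a library that stands apart within its set.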

How the results depend on the processing

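Over both sets, 0 genes were called by edgeR, 6 by DESeq2 and 23 with no filter on low counts. In the first set the count was 5, against 76 by DESeq2 and 90 with no filter, and leaving out 1 library gave 0 to 1578, the highest without EV replicate 2. In the second set it was 0, against 1 by DESeq2 and 12 with no filter, and 0 to 1 with a library left out, where the lone library of a group is assumed to vary like the others. The interaction called 1 gene, 9 by DESeq2, 28 with no filter and 0 to 8 with a library left out, the highest without EV replicate 2. Between the sets 2621 genes were called and 1312 to 3850 with a library left out, lowest without EV replicate 4 and highest without EV replicate 2. Pathway genes called were 0 to 14 in the first set and 5 to 15 between the sets with a library left out. The cause was not tested.

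Of 360 recomputed values of 8 of the 9 genes, 353 moved by less than 1 SD or kept their call, and 7 did not. EPHB3 was fitted for the interaction alone and is left out. A call here is that of the set difference, from which no test is read for the 9. The SD is that of single libraries, and leaving out 1 library moves a mean less, so the share shows little of stability. The difference of EPHB2 between the sets ran from -0.028 without OE replicate 4 to 0.16 with another library left out, against 0.10 with all. That of EPHB4 ran from 0.27 to 0.34 and that of EFNA1 from 0.15 to 0.28 with 1 library left out. The change of EFNA5 in the second set was -0.03 without EV replicate 4. A replicate block on the numbers gave 0 genes over both sets, 1 in the first set and 71 in the second. Deviations of same-numbered libraries from their group and set means correlated at -0.34, 0.05 and 0.46 for numbers 1 to 3 (across 9874 genes). Numbers 4 and 5 share 1 value, 0.58, because with 2 libraries per group their deviations mirror each other. Their best matches with their own numbers are therefore 1 outcome. Numbers 1 and 2 matched best with another number. In the first set the numbers were thus not taken to pair the libraries, although the design text speaks of pairs. The main fits left both sets unpaired. In the second set same-numbered libraries also lay close on the first principal component. EV and OE were at 19.1 and 17.4 for number 4, and at 11.0 and 10.9 for number 5. There the block took the SE of EPHB2 from 0.16 to 0.11 and left that of EFNA1 at 0.12. With 2 libraries per group in the second set and EPHB3 at 2 to 14 counts, small changes there could not be seen.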
